A study of Homo sapiens with 12 samples.

Results

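Long intergenic noncoding RNAs carry a symbol made of LINC and a number until a function earns them another name. The RNAs described here are the genes of that kind that were expressed in A2058, an established human melanoma cell line: symbols of LINC and digits only, chosen by their counts, of which there had to be at least 10 in 3 or more of the 12 libraries. The count table held 26364 genes, 874 of them with such a symbol. 346 of these had no count in any library, 364 had counts below the rule, and 164 met it and are called LINC RNAs below. The rule used the counts of all 12 libraries and no contrast between groups. 6 members met it exactly, the lowest of their 3 highest counts being 10 (LINC00235, LINC00260, LINC00426, LINC00456, LINC00471 and LINC01012), and 6 symbols missed it, the same count being 9 (LINC01134, LINC00167, LINC00597, LINC00672, LINC01010 and LINC01410).

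The study moved the level of MITF, the transcription factor that drives melanocyte differentiation, in both directions. Its 4 groups held 3 libraries each. Cells had received lentivirus of the pLVX vector, either empty or carrying MITF, with selection in puromycin afterwards. Others were transfected by Lipofectamine for 48 hours with an siRNA against MITF or a scrambled siRNA. Libraries were made from total RNA with a stranded kit. The 3 libraries of each group are labelled as biological replicates. Nothing used here says whether they came from separate cultures, so a p-value measures only how these libraries vary, which may be technical variation. Each vector group is a transduced and selected population, so the MITF level and other differences between those populations cannot be told apart. A2058 is 1 line, and no second line was analysed here.

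Long noncoding RNAs are transcribed and often spliced like messenger RNAs, but most are made at a low level and are kept in the nucleus more often. Some act on the chromatin of a neighbouring gene, some bind proteins or microRNAs, and a few hold a short reading frame that is translated. In melanoma the best known examples are SAMMSON, which lies beside MITF and is switched on by the lineage factor SOX10, and several RNAs used or studied as markers of melanoma.

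MITF itself moved as labelled. It stood at 304 ± 6.75 CPM (counts scaled to the size of the library; mean ± SD, n = 3 here and below) with the empty vector, 657 ± 23.3 CPM under the MITF vector, 467 ± 36.8 CPM under scrambled siRNA and 343 ± 21.4 CPM under MITF siRNA. Adjusted p-values are from edgeR's quasi-likelihood test with Benjamini-Hochberg adjustment over all 14297 genes tested, and a gene was called at an adjusted p under 0.05. MITF was called in both MITF comparisons (log2 change of 1.11, SE 0.0512, adjusted p = 4.06e-18 with the vector, and of -0.44, SE 0.0502, adjusted p = 2.84e-08 with siRNA) and between the controls, where it was higher with scrambled siRNA (log2 change of 0.62, SE 0.0513, adjusted p = 3.17e-11). Total counts ran from 7427637 to 23938392 per library. All 8 listed melanocyte and melanoma markers were expressed, with summed levels of 3686 to 3895 CPM in empty vector 7740 to 8404 CPM in MITF vector, 6992 to 7944 CPM in scrambled siRNA and 5614 to 6303 CPM in MITF siRNA libraries. Of the markers of other cell types, 1 of 5 for keratinocytes (KRT5 and DSG3 at 0 in every library), 4 of 5 for fibroblasts and 2 of 4 for endothelial cells reached 10 counts in 3 libraries, and their summed levels stayed at or below 34.4 CPM in every library.

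All 164 symbols were found in RefSeq's gene table of assembly GRCh38.p14. 150 are listed there as long noncoding RNAs, 13 as protein-coding genes and 1, LINC01296 (DUXAP9), as a transcribed pseudogene. 42 now have another symbol. The word intergenic held for most of them: 20 of the 150 noncoding members overlap the span of a protein-coding gene in that annotation. The overlap is of whole spans, and exons were not compared. Where exons overlap as well, reads of the LINC RNA and of the coding gene may not be told apart. Whether counting used strand is not given. Members lie on 23 chromosomes, with 7 on chromosome X and 0 on chromosome Y.

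The LINC RNAs were scarce and noisy in comparison with other genes. Their median level over the 12 libraries was 1.90 CPM, with a range of 0.188 to 472 CPM, against a median of 26.9 CPM for all tested genes. 109 reached 1 CPM, 29 reached 10 CPM and 1 reached 100 CPM. That 1 was LINC00657, known as NORAD, a cytoplasmic RNA that binds the Pumilio proteins, and it held 31.7% of all counts of the members. The 8 with most counts together held 55.5%: LINC00657, LINC00673, LINC00473, LINC00998, LINC00518, LINC00674, LINC01000 and LINC00963. Per kilobase of exon, which the GENCODE release 29 annotation gave for 150 members, the 5 highest levels were those of LINC00657 (88.5 CPM per kilobase), LINC00674 (46.7), LINC00998 (27.1), LINC00493 (23.2) and LINC00518 (22.04). The median coefficient of variation within a group was 17.4% for the 151 tested members and 6.10% for all tested genes.

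Together the members held 0.146% to 0.152% of the counts in empty vector libraries and 0.162% to 0.171% with the MITF vector. The share was 0.136% to 0.140% with scrambled siRNA and 0.126% to 0.137% with MITF siRNA. Without LINC00657 the shares were 0.0916% to 0.0973%, 0.113% to 0.119%, 0.0933% to 0.0937% and 0.0861% to 0.0964% in the same order. The MITF vector libraries thus lay above the other 9 in both measures. The members summed include 12 that met the rule through MITF vector libraries alone, so the choice of members favours that group. Shares without those 12 were not worked out. MALAT1, a nuclear noncoding RNA that is no member, was also highest in the MITF vector libraries: it took 0.480% to 0.666% of counts with the empty vector and 1.22% to 1.27% with the MITF vector, 0.553% to 0.758% with scrambled siRNA and 0.273% to 0.635% with MITF siRNA. The part of a change in nuclear RNA in the member results was not tested.

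Of the 164 members, 151 had counts high enough to be tested, and 80 had at least 10 counts in every library. 12 members reached the rule through MITF vector libraries alone (LINC00426, LINC00488, LINC00681, LINC00698, LINC00853, LINC00925, LINC01012, LINC01013, LINC01317, LINC01352, LINC01354 and LINC01518). A member that enters in this way had to be high with the MITF vector, and those libraries were also among the deeper ones. 8 of the 12 were tested, and the 8 were called higher with the MITF vector. Counts over the 143 tested members without these 8 are therefore given as well.

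The comparison of the MITF vector with the empty vector asks which LINC RNAs differ when MITF is raised. 67 of 151 tested members were called (44.4%, against 59.4% of all tested genes), 45 of them higher (29.8%, against 28.6%) and 22 lower (14.6%, against 30.8%). Without the 8 members above, 59 of 143 were called (41.3%), 37 of them higher (25.9%) and 22 lower (15.4%). Both shares were then below those of all genes, the share called lower by more, a difference that was not tested. The median size of a called log2 fold change was 1.08 for members and 0.45 for all genes, which are more abundant. The first median includes the 8 members above. Sizes of change were not compared with those of genes of like abundance, here or at 2-fold. 26 members were called with a rise of at least 2-fold (6.05% of all genes were) and 11 with such a fall (6.11% of all genes). Together they are 24.5% of the members tested, against 12.2% of all genes. Without the 8 members above they are 29 of 143 (20.3%), with 18 rises and 11 falls. The median log2 fold change of the members, called or not, was 0.11, and that of all tested genes was 0.0037. The members' median includes the 8 members above, and it was not worked out without them.

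A lower count makes a call less likely, so the shares were also read by abundance. Among members with a mean below 0 on the log2 CPM scale, 8 of 28 were called with the MITF vector (28.6%, against 40.5% of genes of that abundance). Between 0 and 2, 27 of 63 were called (42.9%, against 47.4%), and above 2, 32 of 60 (53.3%, against 63%). The members' share was below that of genes of like abundance in each of the 3 ranges. These ranges still hold the 8 tested members that met the rule through MITF vector libraries alone, all of them called. Shares by range without them were not worked out.

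**Figure D1:**
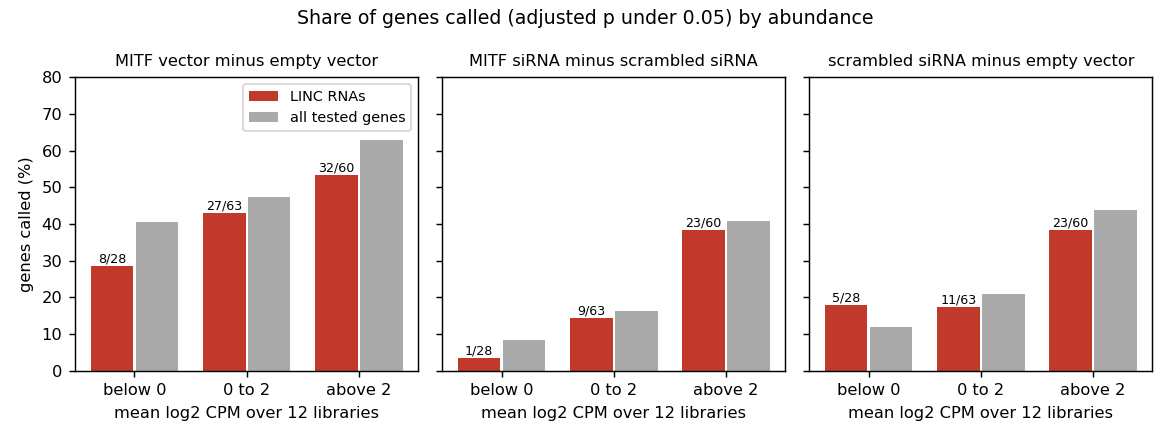
Share of genes called (%, y axis, from 0) in 3 ranges of mean log2 CPM over the 12 libraries (x axis), for LINC RNAs (red, with the number called of the number tested) and all tested genes (grey), in the MITF vector, MITF siRNA and control comparisons. In the first 2 comparisons the red bar is below the grey bar in every range, and in the control comparison it is higher only below 0 (5 of 28). The red bars include the members that met the rule through MITF vector libraries alone.

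The largest rise was that of LINC01531, a noncoding gene of chromosome 19 that lies between GPR42 and FFAR2 in RefSeq. The empty vector libraries gave 0.619, 1.101 and 0.303 CPM and the MITF vector libraries 36.7, 41.3 and 32.2 CPM. Scrambled siRNA libraries gave 2.07, 2.67 and 2.28 CPM and MITF siRNA libraries 0.964, 0.902 and 2.07 CPM. The MITF vector libraries stood above the other 9 by a wide gap, and the siRNA groups met at 2.07 CPM. The rise was 57.6-fold (log2 change of 5.85, SE 0.247, adjusted p = 3.32e-13). With MITF siRNA the log2 difference was -0.77 (SE 0.304, adjusted p = 0.0589) and was not called, and scrambled siRNA was 3.68-fold above the empty vector (adjusted p = 0.00204).

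LINC01443, on chromosome 18 beside ANKRD30B, differed in both MITF comparisons. It stood at 0.757, 1.101 and 0.809 CPM under the empty vector and at 10.7, 10.4 and 9.83 CPM under the MITF vector. With scrambled siRNA it stood at 0.765, 0.773 and 0.662 CPM and with MITF siRNA at 0.170, 0.318 and 0.380 CPM. Neither pair of groups overlapped, and the 2 control groups did. The rise was 11.99-fold (log2 change of 3.58, SE 0.206, adjusted p = 7.67e-17) and the fall 2.42-fold (log2 change of -1.27, SE 0.385, adjusted p = 0.00923). Without MITF siRNA replicate 1 the adjusted p of the fall was 0.0519. Every MITF siRNA library held fewer than 10 counts of LINC01443, so the size of the fall is uncertain.

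LINC00504, on chromosome 4 next to CPEB2, and LINC00520, on chromosome 14 next to KTN1 and reported in melanoma, had rises of like size. LINC00504 went from 1.86, 0.963 and 1.42 CPM to 15.3, 15.98 and 14.3 CPM under the MITF vector, a 10.0-fold rise (log2 change of 3.33, SE 0.183, adjusted p = 2.18e-17). LINC00520 went from 1.03, 0.826 and 1.92 CPM to 13.1, 12.5 and 12.3 CPM, a 9.96-fold rise (log2 change of 3.32, SE 0.189, adjusted p = 5.60e-17). In both, every MITF vector library was above every other library of the study. With MITF siRNA both were lower. LINC00504 fell from 0.918, 0.702 and 0.294 CPM to 0.170, 0.318 and 0.253 CPM (log2 change of -1.32, SE 0.450, adjusted p = 0.0205), with overlapping groups. Every MITF siRNA library held fewer than 10 counts of LINC00504, so the size of its fall is uncertain. LINC00520 fell from 1.38, 1.76 and 1.62 CPM to 0.850, 0.743 and 0.971 CPM (log2 change of -0.87, SE 0.266, adjusted p = 0.00953), with no overlap.

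LINC01050, a noncoding gene of chromosome 13 beside FAM216B, was the member with the largest called fall with MITF siRNA and rose 9.67-fold with the MITF vector. Its levels were 0.275, 0.138 and 0.404 CPM under the empty vector and 3.10, 2.55 and 2.77 CPM under the MITF vector. They were 0.995, 0.773 and 0.588 CPM under scrambled siRNA and 0.170, 0.265 and 0.211 CPM under MITF siRNA. The log2 fold changes were 3.27 (SE 0.362, adjusted p = 1.29e-09) and -1.82 (SE 0.435, adjusted p = 0.00119). Every empty vector and MITF siRNA library held fewer than 10 counts of LINC01050, so the sizes of both changes are uncertain. LINC00698 of chromosome 3 rose from 0.205 ± 0.206 to 9.23 ± 0.624 CPM (log2 change of 5.16, SE 0.307), and the log2 fold change was 6.22 without empty vector replicate 1. LINC01317 (from 0.216 ± 0.0833 to 2.45 ± 0.272 CPM) and LINC01352 (from 0.216 ± 0.188 to 2.354 ± 0.720 CPM) complete the 8 largest rises among called members that averaged at least 0 log2 CPM and whose groups did not overlap. These 3 are among the members that met the rule through the MITF vector libraries alone. The other members of that kind include 2 with large rises that average below 0 log2 CPM. They are LINC00488, with 3 counts in the empty vector group and 154 with the MITF vector, a ratio of 28.3 (95% counting interval 9.50 to 138.7), and LINC01013, with 1 and 69 counts, a ratio of 38.03 (6.60 to 1524). These intervals, exact binomial, cover counting error only.

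Falls with the MITF vector were led by LINC00639, on chromosome 14 in the neighbourhood of SEC23A. Its levels were 3.99, 3.58 and 3.44 CPM under the empty vector and 0.319, 0.196 and 0.198 CPM under the MITF vector. They were 1.38, 2.53 and 3.09 CPM under scrambled siRNA and 4.03, 3.82 and 3.88 CPM under MITF siRNA. The MITF vector libraries were the lowest of all 12, and MITF siRNA libraries were above scrambled siRNA libraries without overlap. The fall was 14.8-fold (log2 change of -3.89, SE 0.330, adjusted p = 2.39e-12), and the rise with siRNA 1.66-fold (log2 change of 0.74, SE 0.203, adjusted p = 0.00443). The call of that rise was lost without scrambled siRNA replicate 1 (adjusted p = 0.0641).

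LINC00607, between FN1 and MREG on chromosome 2, had the same pattern. It went from 3.58, 2.34 and 2.83 CPM under the empty vector to 0.319, 0.490 and 0.264 CPM under the MITF vector, an 8.14-fold fall (log2 change of -3.03, SE 0.303, adjusted p = 1.38e-10). With siRNA it went from 1.76, 1.83 and 1.40 to 2.72, 2.65 and 2.45 CPM, a 1.56-fold rise (log2 change of 0.64, SE 0.224, adjusted p = 0.0236). LINC00326 of chromosome 6, near EYA4, was the most abundant of these. Its levels were 26.7, 25.6 and 26.0 CPM under the empty vector and 7.71, 5.44 and 6.93 CPM under the MITF vector, 12.7, 12.6 and 11.9 CPM under scrambled siRNA and 16.8, 19.9 and 17.1 CPM under MITF siRNA. The 4 groups did not overlap. It fell 3.91-fold with the vector (log2 change of -1.97, SE 0.106, adjusted p = 1.25e-17) and rose 1.45-fold with siRNA (log2 change of 0.53, SE 0.0985, adjusted p = 5.47e-05).

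The other 5 of the 8 largest falls, taken under the same limits on level and overlap, were seen with the vector and not called with siRNA. LINC00869 fell from 2.06 ± 0.365 to 0.568 ± 0.406 CPM (log2 change of -1.75, SE 0.349). Without MITF vector replicate 2 its log2 fold change was -2.50, and as it lies in a duplicated part of chromosome 1 its counts are uncertain as those of a single gene. LINC01561, beside PPAPDC1A on chromosome 10, fell 2.93-fold, LINC01234 of chromosome 12 fell 2.63-fold, LINC01426, near the transcription factor gene RUNX1, fell 2.58-fold, and LINC00941, near CAPRIN2, fell 2.54-fold, from 7.39 ± 0.679 to 2.92 ± 0.419 CPM. The empty vector and MITF vector libraries overlapped in none of these 5, which those limits require. LINC01583, with a log2 change of -1.50, averaged just below 0 log2 CPM and is given further on.

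MITF binds E-boxes, and those it can bind include CACGTG and CATGTG. RefSeq's promoter table of GRCh38.p14, with 250 bases before and 50 after each start, held 121 of the members. Both motifs were searched on both strands; CACGTG reads the same on both, CATGTG appears as CACATG on the other, and a window counted once for a motif however many matches, overlapping or not, it held. Either motif was in 16.5% of the members' windows (20 of 121) and in 17.9% of all 27305 windows of that length. CACGTG was in 6.61% against 7.43% and CATGTG in 10.7% against 11.2%. Windows with either motif were 5 of 30 (16.7%) for members higher with the MITF vector, 4 of 18 (22.2%) for members lower and 7 of 62 (11.3%) for members not called. The members called higher include some that met the rule through MITF vector libraries alone, among them LINC01352, with neither motif, and LINC01354, with CATGTG. Shares without them were not worked out. A match is a description of the letters and not of binding.

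The windows below are those of LINC01531, which had the largest rise, of 3 of the named members with large changes whose windows hold 2 E-boxes each, and of NORAD, the most abundant member. Sequences are from RefSeq, read 5′ to 3′ along the gene's strand, with E-boxes in capitals. Positions of E-boxes count from the first base of the gene. LINC01531 (GRCh38.p14, chr19:35405357-35405656, plus strand) holds neither motif. LINC01443 (chr18:14946017-14946316, plus strand) holds CATGTG or its reverse at -113 and -102. LINC01561 (chr10:120597699-120597998, plus strand), which fell, holds it at -240 and -39. LINC01234 (chr12:113773634-113773933, minus strand), which fell, holds it at -171 and -38. NORAD (chr20:36050911-36051210, minus strand) holds CACGTG at -138.
LINC01531: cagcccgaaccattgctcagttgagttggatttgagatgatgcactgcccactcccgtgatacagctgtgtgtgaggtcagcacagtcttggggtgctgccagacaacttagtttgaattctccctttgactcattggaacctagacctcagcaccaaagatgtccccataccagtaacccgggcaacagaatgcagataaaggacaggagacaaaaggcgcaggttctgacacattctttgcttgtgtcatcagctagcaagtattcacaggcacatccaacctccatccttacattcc
LINC01443: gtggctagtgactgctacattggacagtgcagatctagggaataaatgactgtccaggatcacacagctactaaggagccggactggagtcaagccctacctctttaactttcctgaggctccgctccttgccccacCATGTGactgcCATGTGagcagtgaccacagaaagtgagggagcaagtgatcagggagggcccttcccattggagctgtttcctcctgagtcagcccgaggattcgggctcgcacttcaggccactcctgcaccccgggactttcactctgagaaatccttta
LINC01561: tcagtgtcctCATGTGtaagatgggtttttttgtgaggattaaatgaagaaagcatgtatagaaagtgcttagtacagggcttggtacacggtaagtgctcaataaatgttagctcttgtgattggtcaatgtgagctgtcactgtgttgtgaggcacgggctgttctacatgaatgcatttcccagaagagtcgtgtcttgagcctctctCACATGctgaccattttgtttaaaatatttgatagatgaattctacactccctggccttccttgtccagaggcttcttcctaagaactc
LINC01234: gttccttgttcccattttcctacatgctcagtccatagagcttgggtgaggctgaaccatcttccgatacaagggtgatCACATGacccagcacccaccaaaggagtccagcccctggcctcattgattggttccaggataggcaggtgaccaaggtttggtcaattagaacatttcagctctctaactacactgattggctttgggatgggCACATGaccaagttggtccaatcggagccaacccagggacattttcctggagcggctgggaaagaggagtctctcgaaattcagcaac
NORAD: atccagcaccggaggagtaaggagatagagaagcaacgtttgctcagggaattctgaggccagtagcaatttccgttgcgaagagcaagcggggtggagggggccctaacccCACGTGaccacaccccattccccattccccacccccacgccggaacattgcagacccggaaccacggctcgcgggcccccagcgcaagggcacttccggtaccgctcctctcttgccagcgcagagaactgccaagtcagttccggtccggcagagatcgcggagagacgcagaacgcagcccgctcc
The windows of LINC01443, LINC01561 and LINC01234 were picked for their E-boxes. All are shown as sequences only, and binding by MITF was not tested.

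The 2 siRNA groups show which LINC RNAs differ when MITF is lowered. 33 of 151 members were called (21.9%, against 35.4% of all genes), 16 of them higher (10.6%, against 18.7%) and 17 lower (11.3%, against 16.7%). Without the 8 members that entered through the MITF vector libraries alone, 33 of 143 were called. 3 rises (background 1.31%) and 3 falls (background 0.441%) were of at least 2-fold, together 3.97% of those tested, against 1.76% of all genes. The median size of a called log2 fold change was 0.64 for members and 0.30 for all genes, which are more abundant. By abundance, 1 of 28 members below 0 (3.57%, against 8.37%), 9 of 63 between 0 and 2 (14.3%, against 16.2%) and 23 of 60 above 2 (38.3%, against 40.9%) were called.

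The largest rise with MITF siRNA was that of LINC01198, of chromosome 13. It stood at 2.296, 2.39 and 2.79 CPM under scrambled siRNA and at 6.69, 6.79 and 5.87 CPM under MITF siRNA. The vector groups stood between, at 4.61, 4.54 and 4.15 CPM under the empty vector and 4.83, 3.87 and 3.63 CPM under the MITF vector. The rise was 2.57-fold (log2 change of 1.36, SE 0.162, adjusted p = 2.94e-08), while the vector groups overlapped (log2 change of -0.10, SE 0.165, adjusted p = 0.634). LINC01314, which RefSeq lists as the protein-coding gene CTXND1 of the cortexin family, rose 2.32-fold, from 1.91, 1.83 and 2.28 CPM to 4.54, 4.35 and 5.07 CPM (log2 change of 1.22, SE 0.180, adjusted p = 1.75e-06). Its MITF siRNA libraries were the 3 highest of the 12. LINC01608 (from 1.34 ± 0.223 to 2.67 ± 0.578 CPM), LINC00938 (from 5.84 ± 0.856 to 9.55 ± 0.501 CPM) and LINC00472 (from 9.78 ± 1.31 to 15.5 ± 3.75 CPM) also rose, and LINC00639, given above, completes the 6 largest under the limits on level and overlap.

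Of the falls with MITF siRNA, that of LINC01291, reported in melanoma, had the smallest adjusted p among the named members. It stood at 10.9, 14.0 and 14.8 CPM under scrambled siRNA and 6.24, 7.27 and 6.59 CPM under MITF siRNA. Its vector groups overlapped, at 14.5, 12.8 and 15.3 CPM with the empty vector and 13.5, 12.4 and 12.5 CPM under the MITF vector. The fall was 1.98-fold (log2 change of -0.98, SE 0.113, adjusted p = 1.49e-08). LINC01537, on chromosome 11 beside CLPB, fell 1.65-fold, from 9.64, 9.97 and 9.56 CPM to 6.69, 7.01 and 4.31 CPM (adjusted p = 0.00021). It also fell 1.70-fold with the MITF vector, from 20.2, 22.4 and 17.4 CPM to 11.99, 10.7 and 12.6 CPM (adjusted p = 4.11e-06), so that it was lower in both treated groups than in their controls. LINC00852 fell from 1.78 ± 0.385 to 0.970 ± 0.336 CPM (adjusted p = 0.0158), a call lost without MITF siRNA replicate 2 (0.0845) or scrambled siRNA replicate 3 (0.113) and in DESeq2 (0.0583).

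The 2 MITF comparisons share no library. 19 of 151 members were called in both (12.6%, against 24.7% of all tested genes). They are 28.4% of the members called with the vector and 57.6% of those called with siRNA, where the shares over all genes were 41.5% and 69.8%. 14 of the 151 were called in both with opposite signs (9.27%, against 17.8% of all tested genes). Among those called in both, that is 73.7% of the 19 members and 71.9% of the 3529 genes. The share of opposite signs among those called in both is thus near the background. 9 rose with the vector and fell with siRNA, among them LINC00473, LINC00479, LINC00504, LINC00520, LINC00674, LINC00852, LINC01050 and LINC01443. 5 fell with the vector and rose with siRNA: LINC00326, LINC00327, LINC00472, LINC00607 and LINC00639. Leaving out single libraries gave 11 to 17 members of opposite sign, with 11 without MITF siRNA replicate 1 and 17 without MITF siRNA replicate 3.

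**Figure D2:**
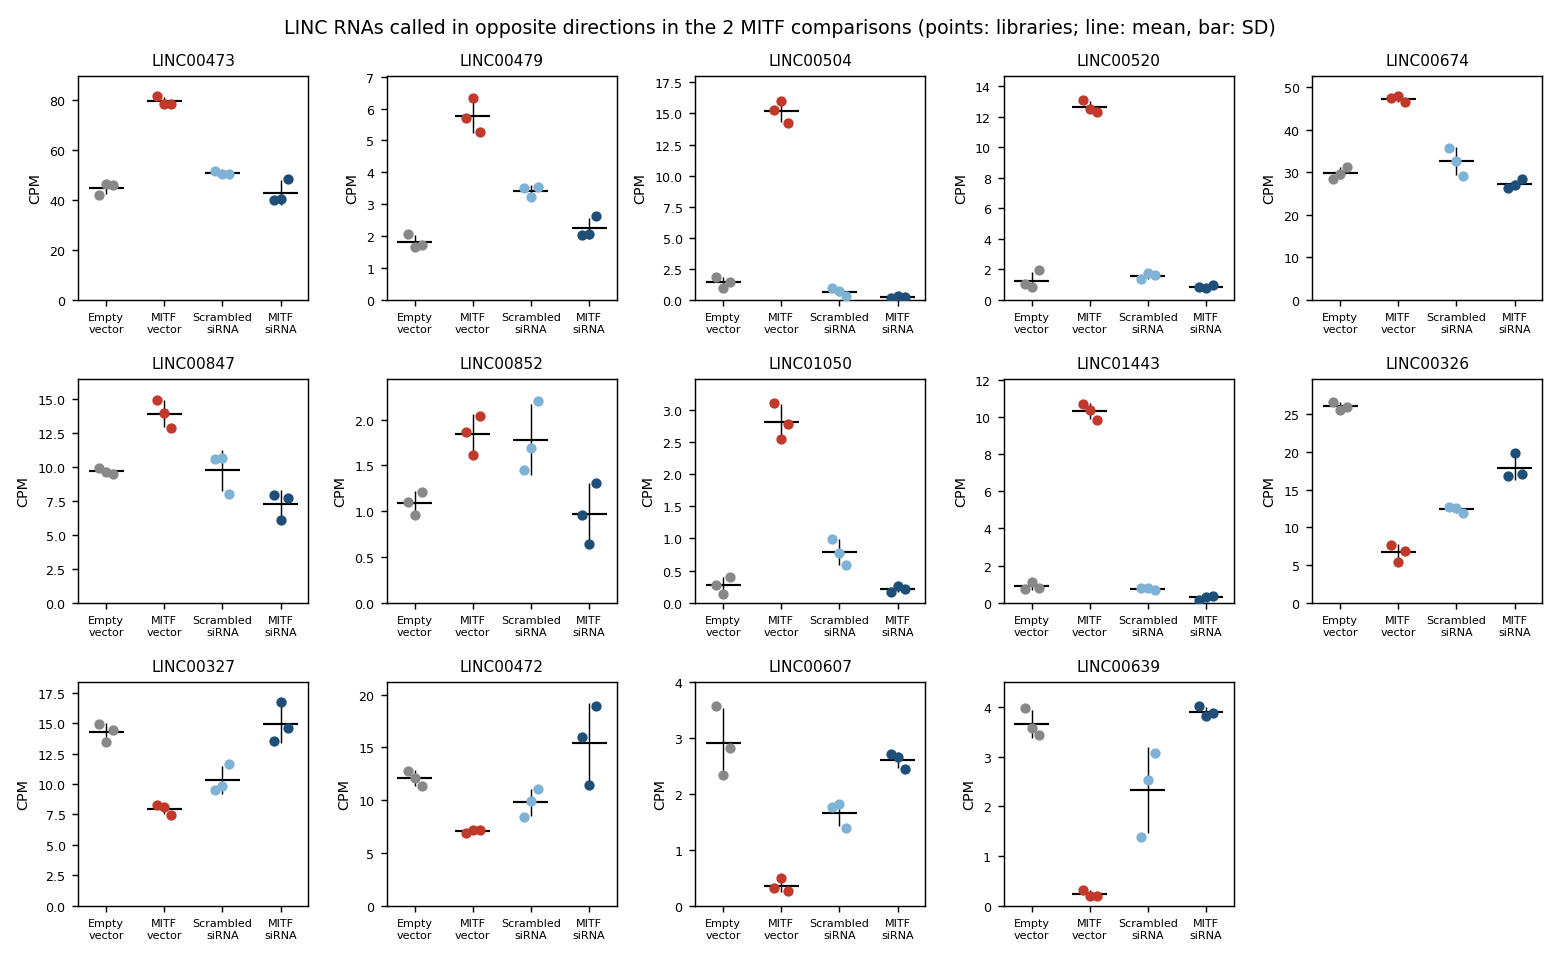
Level of each of the 14 LINC RNAs called in opposite directions in the 2 MITF comparisons, in CPM (y axis, from 0) for each library (points), with the group mean (line) and SD (bar); the order of panels is the 9 that rose with the MITF vector, then the 5 that fell. LINC00326 shows 4 groups apart, from 26.1 ± 0.561 CPM under the empty vector down to 6.69 ± 1.15 CPM under the MITF vector; LINC00327 and LINC00847 are outside the naming rule and are shown because they were called.

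The remaining 5 of the 19 had the same sign in both comparisons. LINC00518 and LINC01239 were higher in both treated groups, and LINC00657, LINC01537 and LINC01583 were lower in both. LINC01239, LINC01583 and LINC00327 were named after their values were seen, to complete these counts. LINC01239, next to DMRTA1, rose from 1.45, 1.101 and 1.42 to 11.4, 12.5 and 10.9 CPM under the vector, an 8.54-fold rise (adjusted p = 3.06e-15), and from 1.11 ± 0.449 to 1.96 ± 0.539 CPM under siRNA (adjusted p = 0.0116), with overlapping groups in the second. LINC01583 fell from 1.97 ± 0.218 to 0.690 ± 0.0996 CPM and from 0.899 ± 0.329 to 0.461 ± 0.116 CPM. The correlation of the 2 log2 fold changes over tested members was r = -0.29, and over all tested genes -0.24. The first value includes the members that met the rule through MITF vector libraries alone, and r without them was not worked out. Members are not independent replicates and no test was made.

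The difference between the 2 responses was tested in the same fit. 66 of 151 members were called (43.7%, against 56.9% of all genes), 40 with the more positive change in the vector comparison (26.5%, against 27.1%) and 26 with the more negative one (17.2%, against 29.8%). Without the 8 members that entered through the MITF vector libraries alone, 61 of 143 were called (42.7%), 35 more positive (24.5%) and 26 more negative (18.2%). The 14 members of opposite sign are among the 66, which was likely beforehand, since changes of opposite sign add up in this difference. The most positive named differences were those of LINC01531 (log2 difference of 6.62, SE 0.458, adjusted p = 6.24e-10), LINC00698 (6.01, SE 0.765, adjusted p = 3.05e-08), LINC01050 (5.09) and LINC01443 (4.86). LINC00698 is one of those 8, and its value was 7.07 without empty vector replicate 1 and 6.71 without MITF siRNA replicate 2. The most negative were those of LINC00639 (-4.62, SE 0.392, adjusted p = 3.06e-12), LINC00607 (-3.67), LINC00326 (-2.50) and LINC00869 (-1.86, and -2.60 without MITF vector replicate 2).

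**Figure D3:**
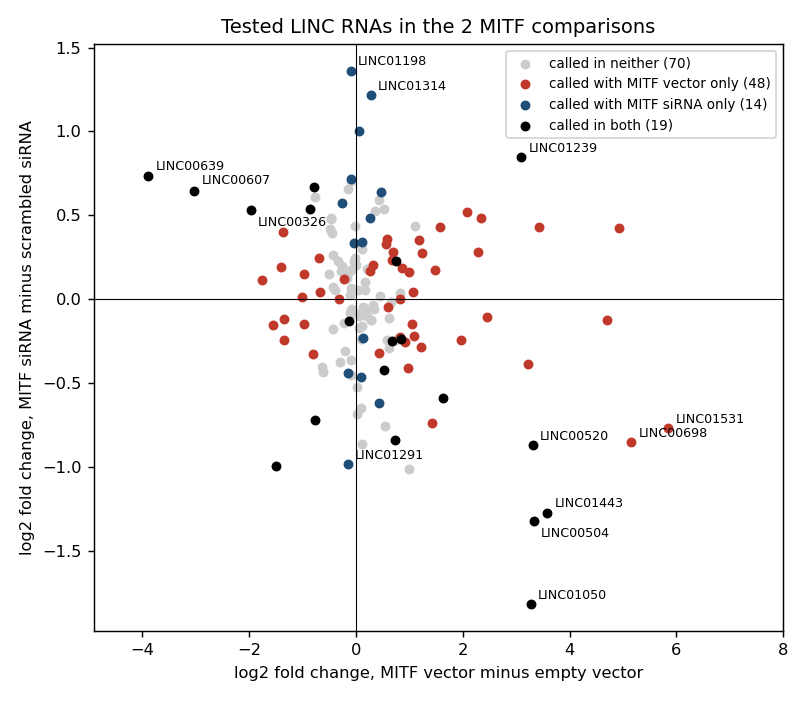
Log2 fold change of each of the 151 tested LINC RNAs with the MITF vector against the empty vector (x axis) and with MITF siRNA against scrambled siRNA (y axis); colours give the comparisons in which each was called. The 19 called in both are black, and LINC01531 lies furthest right, at 5.85.

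Among RNAs with a described role, NORAD changed by little and in 1 direction in both MITF comparisons. Its mean levels in the control groups stood further apart than those of either MITF comparison. Its levels were 541, 557 and 528 CPM under the empty vector, 507, 499 and 477 CPM under the MITF vector, 467, 440 and 432 CPM under scrambled siRNA and 398, 414 and 409 CPM under MITF siRNA. The 4 groups did not overlap. The log2 fold change was -0.13 with the vector (SE 0.0424, adjusted p = 0.0075) and -0.13 with siRNA (SE 0.0424, adjusted p = 0.0131), and the latter call was lost without MITF siRNA replicate 1 (0.0591) or scrambled siRNA replicate 1 (0.100).

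Of the 5 expressed members of a list of RNAs reported in melanoma, 3 rose and 1 fell with the MITF vector, where 28.6% and 30.8% of all genes did (median log2 fold change 0.61, against 0.0037 for all genes). SAMMSON, listed as LINC01212, was at 7.23, 8.53 and 7.79 CPM under the empty vector, 10.2, 13.6 and 11.7 CPM under the MITF vector, 11.6, 11.9 and 11.4 CPM under scrambled siRNA and 9.81, 9.39 and 14.2 CPM under MITF siRNA. The empty vector libraries were the 3 lowest. It rose 1.53-fold with the vector (adjusted p = 0.00197), and no difference was called with siRNA (log2 change of -0.05, SE 0.137, adjusted p = 0.831). LINC00518, measured with PRAME in a skin patch test for melanoma and placed beside TFAP2A, rose 1.68-fold, from 37.6, 33.7 and 35.4 CPM to 63.4, 62.8 and 53.1 CPM (adjusted p = 7.77e-11). It was 1.17-fold higher with MITF siRNA as well (adjusted p = 0.0119), a call lost without MITF siRNA replicate 1 (0.0516), MITF siRNA replicate 3 (0.0536) or scrambled siRNA replicate 3 (0.0988). LINC00673, described in melanoma as SLNCR, fell 1.247-fold with the vector, from 90.6, 88.2 and 96.7 CPM to 74.0, 75.4 and 71.4 CPM (adjusted p = 5.40e-06), and was at 114 ± 4.11 and 114 ± 7.48 CPM in the siRNA groups. LINC00520 rose and LINC01291 was not called, as given above. With siRNA, 1 of the 5 rose and 2 fell, against 18.7% and 16.7% of all genes (median log2 fold change -0.05).

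A list of RNAs studied elsewhere in cancer and development had 15 expressed members. 3 rose and 6 fell with the vector (median log2 fold change 0.05), where 59.4% of all genes were called, and 2 rose and 3 fell with siRNA (median 0.04), where 35.4% were. LINC00473, which cyclic AMP signalling induces through CREB, rose 1.79-fold from 42.0, 46.4 and 46.0 CPM to 81.6, 78.6 and 78.4 CPM (adjusted p = 2.29e-13) and fell 1.18-fold with siRNA, from 51.7, 50.3 and 50.5 CPM to 39.97, 40.2 and 48.6 CPM (adjusted p = 0.00362). It overlaps the span of PDE10A, a phosphodiesterase gene that moved the same way (log2 change of 0.38 with the vector and -0.33 with siRNA). CYTOR, listed as LINC00152, fell 1.97-fold with the vector, from 15.6, 13.1 and 13.8 CPM to 6.25, 7.01 and 8.91 CPM (adjusted p = 8.94e-09); it has a near-identical copy, and its counts may hold reads of both. LINC01116 fell 1.61-fold, LINC00665 2.01-fold, LINC00472 1.71-fold and LINC00941 2.54-fold, and LINC00511 rose 2.11-fold, from 3.09 ± 0.381 to 6.31 ± 0.474 CPM. LINC00312 rose 1.49-fold. The host transcript of a miR-9 gene, LINC00461, rose 1.26-fold with siRNA (adjusted p = 0.0113), from 11.3 ± 1.064 to 14.3 ± 1.82 CPM, a call lost without MITF siRNA replicate 3 (0.0909) or scrambled siRNA replicate 1 (0.0743). LINC00963 fell 1.17-fold with siRNA (adjusted p = 0.00842). CHASERR (LINC01578), which lies beside CHD2, stood at 24.3 to 26.8 CPM in the 4 group means with no call in the 2 MITF comparisons, and LINC00324, LINC01089 and LINC00094 had none either.

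LINC00674 and LINC01000 complete the 8 with most counts. LINC00674 rose 1.59-fold with the vector, from 29.8 ± 1.38 to 47.4 ± 0.733 CPM (adjusted p = 2.50e-10), and fell 1.19-fold with siRNA, from 32.6 ± 3.31 to 27.3 ± 1.01 CPM (adjusted p = 0.00394), a call lost without scrambled siRNA replicate 1 (0.0572). LINC01000 rose 1.77-fold with the vector, from 23.9 ± 1.19 to 42.0 ± 3.64 CPM (adjusted p = 0.00209), and was not called with siRNA.

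**Figure D4:**
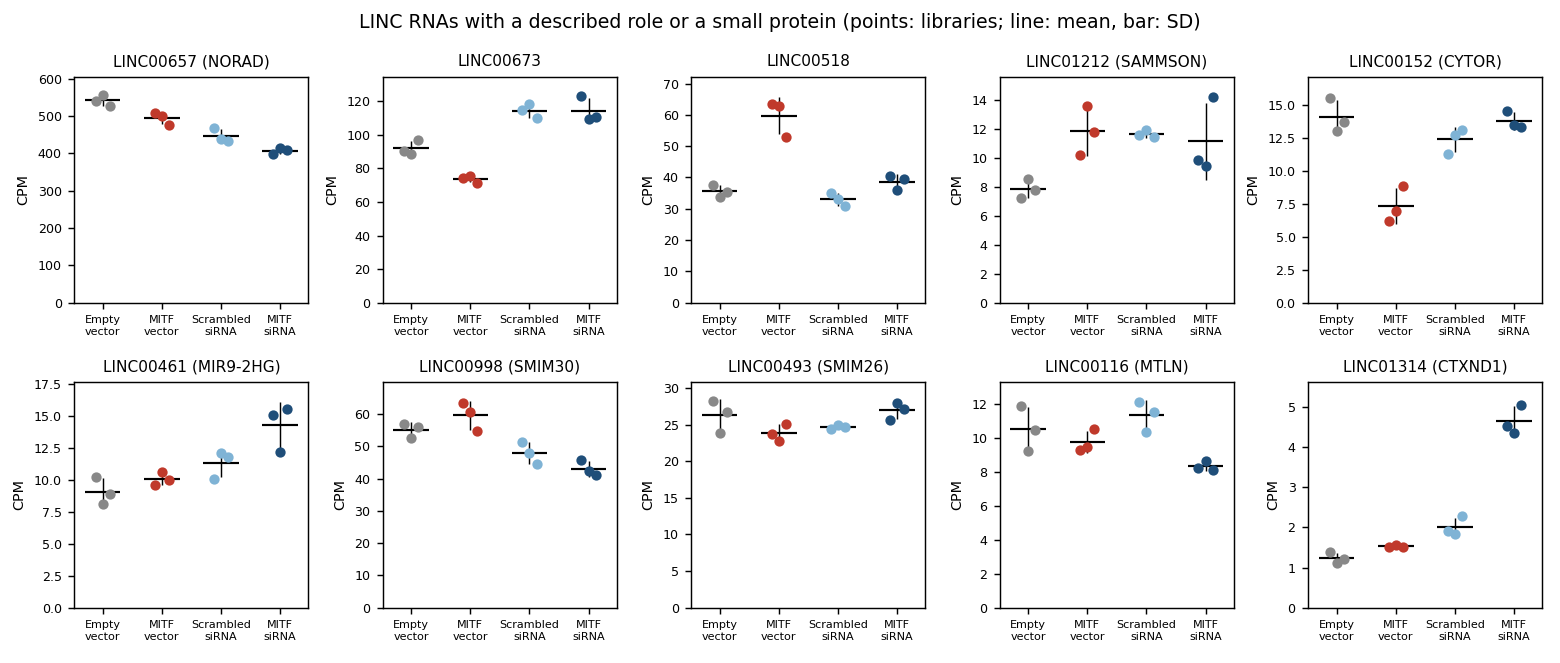
Levels in CPM (y axis, from 0) of 10 LINC RNAs with a described role or a small protein, for each library (points) with the group mean (line) and SD (bar). NORAD declines over the groups from 542 ± 14.3 to 407 ± 8.18 CPM, and CTXND1 is highest with MITF siRNA, at 4.65 ± 0.371 CPM.

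13 members are listed by RefSeq as protein-coding, many of them with very short proteins. All 13 were tested. 1 rose with the vector (LINC00890, now SERTM2, from 0.751 ± 0.314 to 3.47 ± 0.372 CPM) and 1 fell (LINC00341, now SYNE3, from 3.89 ± 0.854 to 2.16 ± 0.327 CPM), where 59.4% of all genes were called. With siRNA 1 rose (LINC01314) and 2 fell, where 35.4% of all genes were called. LINC00116, which encodes mitoregulin, a small protein of the inner mitochondrial membrane, fell from 12.1, 10.3 and 11.5 CPM to 8.22, 8.60 and 8.11 CPM (1.36-fold, adjusted p = 0.00137), and LINC00176, now C20orf204, fell 1.54-fold. LINC00890, LINC00341 and LINC00176 were named after their values were seen.

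A list of 6 expressed members with a reported small peptide, which shares 5 with those 13, had 0 calls with the vector in edgeR's test, with 2 at an unadjusted p under 0.05 and 0 called by DESeq2; 59.4% of all genes were called in edgeR's test. LINC00998 encodes SMIM30 and LINC00493 encodes SMIM26, both small membrane proteins; LINC01420 encodes NBDY, a peptide of P-bodies. LINC00998 stood at 55.1 ± 2.35, 59.6 ± 4.57, 48.0 ± 3.47 and 43.1 ± 2.51 CPM under the empty vector, the MITF vector, scrambled siRNA and MITF siRNA. In the same order LINC00493 stood at 26.3 ± 2.27, 23.9 ± 1.18, 24.7 ± 0.298 and 26.9 ± 1.16 CPM, and LINC01420 at 14.6 ± 0.238, 13.6 ± 0.339, 13.3 ± 0.620 and 15.0 ± 1.15 CPM. LINC00467 stood at 8.65 ± 0.553, 7.24 ± 0.304, 6.73 ± 0.109 and 7.61 ± 0.964 CPM. With siRNA, 1 of the 6 rose (LINC01314) and 1 fell (LINC00116), where 35.4% of all genes were called.

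The control groups were compared with each other because they set the level against which each MITF change is read. 39 of 151 members were called between scrambled siRNA and the empty vector (25.8%, against 38.5% of all genes), 17 higher with scrambled siRNA (11.3%, against 18.9%) and 22 lower (14.6%, against 19.6%). Without the 8 members that entered through the MITF vector libraries, 38 of 143 were called. Without empty vector replicate 1 the count was 25, with 10 higher and 15 lower, and DESeq2 called 26. By abundance 5 of 28 members below 0 were called (17.9%, against 11.9%), 11 of 63 between 0 and 2 (17.5%, against 21%) and 23 of 60 above 2 (38.3%, against 43.7%). Among members averaging at least 0 log2 CPM the largest fall was that of LINC00052, from 2.62, 2.20 and 3.24 CPM to 0.612, 0.843 and 0.882 CPM (log2 change of -1.78, SE 0.320, adjusted p = 2.91e-05). LINC00326, LINC01537 and LINC01234 also were lower with scrambled siRNA, by 2.11-fold, 2.04-fold and 2.16-fold. LINC00504 and LINC00607 were lower by 2.354-fold and 1.82-fold, calls lost without empty vector replicate 1 (adjusted p of 0.0935 and 0.0899). LINC01531 was higher, as given above, and so were LINC00511 (1.88-fold), LINC00479 (1.84-fold) and LINC00910 (1.63-fold). LINC01050 (2.71-fold) and LINC01271 (2.46-fold) were called higher too, but both calls were lost without empty vector replicate 1, empty vector replicate 2 or scrambled siRNA replicate 1 and in DESeq2. That of LINC01271, with an adjusted p of 0.0497, was also lost with no filter, with the replicate block, and without empty vector replicate 3, any 1 of the MITF vector libraries, MITF siRNA replicate 1 or scrambled siRNA replicate 2 (adjusted p of 0.0519 to 0.206). Since this comparison shares its libraries with the other comparisons, values are only set side by side. LINC00479, for example, stood at 1.81 ± 0.222 CPM under the empty vector, 5.77 ± 0.525 CPM under the MITF vector, 3.43 ± 0.170 CPM under scrambled siRNA and 2.24 ± 0.325 CPM under MITF siRNA.

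The nearest protein-coding gene of a member, from RefSeq's gene order, was among the tested genes for 118 tested members. Of 52 of these called with the vector, 23 had a neighbour called in the same direction (44.2%, against 37.4% of all called genes with a tested neighbour) and 14 a neighbour called in the other direction (26.9%, against 24.4%). With siRNA the counts were 9 of 28 (32.1%, against 24.3%) and 4 of 28 (14.3%, against 14.8%). The correlation of a member's log2 fold change with its neighbour's was r = 0.13 with the vector (0.26 over all genes) and 0.35 with siRNA (0.15 over all genes). It is given as a description, since neighbours share a chromosome region and members can share a neighbour. With the vector LINC01270, LINC01271 and LINC01272 rose beside CEBPB, which fell. LINC00111 and LINC00479 rose beside RIPK4, which rose. A coding gene that overlaps a member counted as its nearest, and there reads may not be told apart. The vector values include members that met the rule through MITF vector libraries alone, such as LINC01013 and LINC01317.

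Single pairs went both ways. FAM216B, beside LINC01050, had a log2 fold change of 5.15 with the vector (adjusted p = 4.50e-07), where LINC01050 had 3.27. CPEB2, an RNA-binding protein gene beside LINC00504, rose by 1.098 on the log2 scale, and DMRTA1, beside LINC01239, by 0.98. RIPK4, a kinase gene beside LINC00479, rose by 0.90 with the vector and fell by 0.71 on the log2 scale with siRNA, as LINC00479 did (1.64 and -0.59). SEC23A, a COPII coat gene beside LINC00639, fell by 0.24 on the log2 scale with the vector and rose by 0.51 with siRNA. ANKRD30B, beside LINC01443, had 0.28 and -0.34. In contrast, MREG, a melanosome transport gene beside LINC00607, rose by 1.16 with the vector while LINC00607 fell by 3.03. MOXD1 fell by 2.26 beside LINC01013, which rose. LINC01013 met the rule through MITF vector libraries alone and had 1 count with the empty vector. KTN1, beside LINC00520, had -0.12 with the vector against 3.32 for LINC00520. FAH, beside LINC01314, fell by 0.40 on the log2 scale with siRNA while LINC01314 rose.

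**Figure D5:**
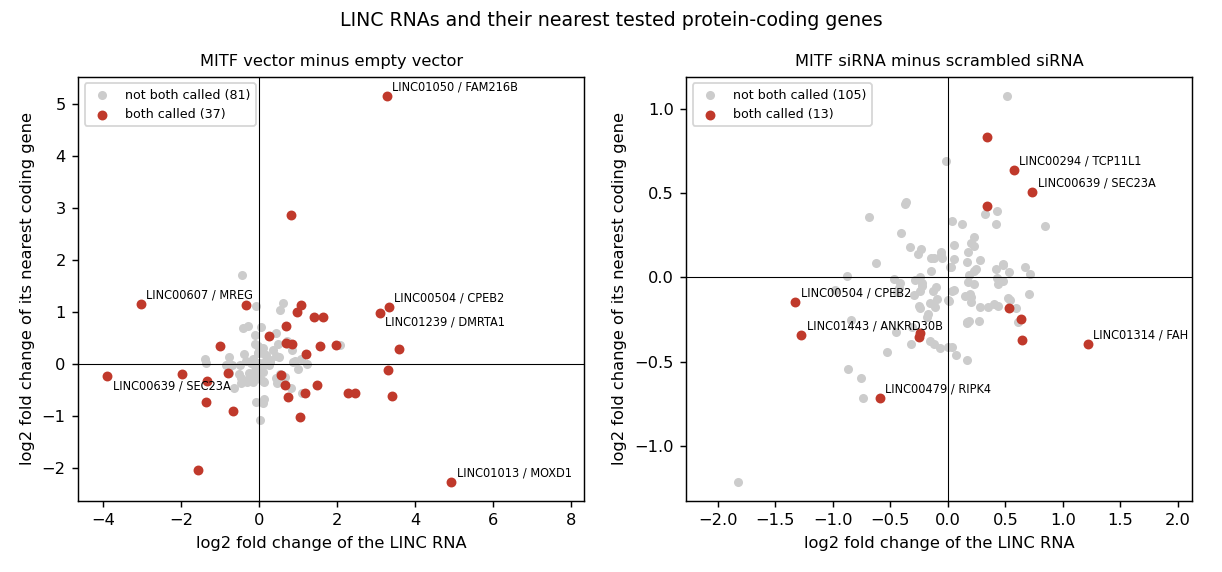
Log2 fold change of each of 118 tested LINC RNAs (x axis) against that of its nearest tested protein-coding gene (y axis), with the MITF vector (left) and MITF siRNA (right); red points are pairs with both genes called. LINC01050 and FAM216B lie highest on the left panel (3.27 and 5.15), and LINC01013 with MOXD1 lowest (4.93 and -2.26). LINC01013 had 1 count in the empty vector group and FAM216B averaged 0.0337 CPM there, so their fitted values depend on the prior count.

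11 members lie on chromosome 13, and 7 of them were tested. With the vector 2 rose (LINC00346 and LINC01050) and 1 fell (LINC00327, from 14.3 ± 0.738 to 7.95 ± 0.430 CPM), where 59.4% of all genes were called. With siRNA, where 35.4% were, 2 rose (LINC00327, from 10.3 ± 1.14 to 15.0 ± 1.61 CPM, and LINC01198) and 1 fell (LINC01050). The same 3 also differed between the controls, where 38.5% of all genes were called. There 2 members were higher with scrambled siRNA, LINC01050 among them, and 2 were lower (LINC00327 and LINC01198). The call of LINC01050 was lost under several alternatives, as given above.

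Other long noncoding RNAs, named in another way and so outside the rule, were read from a list with 47 tested genes. 22 rose and 9 fell with the vector, against 28.6% and 30.8% of all genes (median log2 fold change 0.17), and 11 rose and 2 fell with siRNA, against 18.7% and 16.7% (median 0.06). By adjusted p the first 4 with the vector were DIRC3, a noncoding gene studied in melanoma that fell from 4.53 ± 0.924 to 0.175 ± 0.0680 CPM (25.3-fold, adjusted p = 1.79e-14), MIR100HG, a microRNA host gene that fell 2.82-fold, and the snoRNA host genes SNHG6 and GAS5, which rose 1.40-fold and 1.26-fold.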

How the data were processed

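What the authors deposited is a single table of raw counts, whole numbers by gene symbol and library. The tools named are featureCounts 1.6.3, STAR 2.6.0, bcl2fastq 2.18.0 and SAMtools 1.10, with build hg19, per the submitters' processing notes; which settings and strand mode were chosen is not given there.

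edgeR's filterByExpr (minimum count 10) kept 14297 genes, TMM scaled the libraries, and the 4 group means were estimated together from all 12 libraries by robust quasi-likelihood in edgeR 4.0.16 under R 4.3.3. Benjamini-Hochberg adjustment ran over all tested genes. CPM values use the TMM scaling. Totals ran from 7427637 to 23938392 counts. The edgeR fit and its comparisons were run on simulated counts with changes set beforehand. Alternatives were RLE size factors, DESeq2 1.42.0, other filters, fewer groups, a replicate block and leaving out each library.

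The members and lists were chosen with earlier results of these data known. Members were named where called, averaging 0 log2 CPM or more, with no overlap (8 largest rises and falls for the vector, 6 for siRNA and the controls), then the 4 and 4 largest differences of response, the 8 with most counts and those of 3 lists. RefSeq (GRCh38.p14, not the authors' build) gave names, gene order and promoter windows, and GENCODE exon lengths. The result of 1 marker list is not reported here.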

Additional observations from a re-analysis of the deposited data

How the results depend on the processing

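The count of members called kept within 1.5 times its reported value under the alternatives run, except between the controls. There it was 39 as reported and 25 without empty vector replicate 1, and 26 with DESeq2; the cause was not tested. Leaving out single libraries gave 62 to 73 members called with the MITF vector (67 as reported), 26 to 35 with MITF siRNA (33), 25 to 45 between the controls and 61 to 70 for the difference of responses (66). DESeq2 called 61, 28 and 57 in the first, second and last. The replicate numbers did not pair the libraries: deviations of same-numbered libraries from their group means correlated at -0.121 to 0.064. The fit with the replicate block called 68, 34, 39 and 65 members. The alternatives for the 14 members of opposite sign were added after seeing the data. They gave 12 with DESeq2, 14 with the replicate block and 11 to 17 without single libraries. Of 96 calls of named members, 0 changed sign under any alternative, and 22 were lost under at least 1. 12 of these were lost only when a library was left out; 10 were lost with DESeq2, 2 with another filter, 2 with the replicate block and 0 with RLE size factors, some under more than 1 of these. Of 57 named values not called, 11 changed sign under an alternative and 11 were called under one. Depth limits the scarce members most: 109 of the 164 reached a mean of 1 CPM, and 13 were too low to be tested.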
